A study of Mus musculus with 24 samples.

Results

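The enzymes that supply and limit the deoxynucleotide pool were followed in primary murine astrocytes after exposure to X-rays. They comprised 9 of the 49315 genes listed in each count table, selected by symbol: *Rrm1*, *Rrm2*, *Tyms*, *Tk1*, *Dut*, *Dck*, *Dctpp1*, *Dtymk* and *Samhd1*. The astrocytes came from the cortex of wild type C57BL/6J embryos close to term, and the cells of all embryos of one pregnant mouse were pooled. They received mock irradiation (0 Gy) or a dose of 0.1 or 2 Gy of X-rays (200 kV, 1 Gy per min) 3 days after seeding, and RNA was harvested after 6 h and 24 h. Each of the 6 groups held 4 libraries, the biological repeats n1 to n4, which makes 24 libraries in all. All 6 groups shared the strain and the genotype. The 4 genes described first below lie at chr7:102441695-102469771 (*Rrm1*), chr12:24708241-24714146 (*Rrm2*), chr5:30058202-30073617 (*Tyms*) and chr11:117815526-117826092 (*Tk1*) of GRCm38, and all 9 are annotated as protein-coding.

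Cells obtain deoxynucleotides by de novo synthesis and by salvage. In de novo synthesis, ribonucleotide reductase converts ribonucleoside diphosphates to deoxyribonucleoside diphosphates. *Rrm1* encodes its large, regulatory and catalytic subunit and *Rrm2* the small subunit of cycling cells, which is made in S phase and degraded at the end of mitosis. *Tyms* makes thymidylate from deoxyuridylate, for which *Dut* supplies the substrate while removing dUTP. In salvage, the cytosolic thymidine kinase *Tk1* and the deoxycytidine kinase *Dck* phosphorylate deoxynucleosides, and *Dtymk* carries thymidylate on to the diphosphate. *Dctpp1* hydrolyses dCTP and related triphosphates, and *Samhd1* cleaves deoxynucleoside triphosphates, with high expression in cells that do not divide and in macrophages. Postmitotic neural cells are known for a small pool of deoxynucleotides, whereas cultured astrocytes still divide.

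Total counts per library ranged from 14742855 to 38194800 with a median of 24829888.5, and all 9 genes passed the filter on low counts in every comparison. Levels are given in CPM, the reads of a gene scaled to a common normalized library total. All 12 astrocyte markers had counts in every library, with a summed level between 2591 and 3692 CPM and *Glul*, *Aqp4* and *Gfap* as the highest. The 12 fibroblast and vessel markers summed to between 3530 and 7852 CPM, led by *Acta2*, *Col1a1* and *Col1a2*, with 3 of the 12 below 1 CPM in all libraries. Neuron markers summed to between 413 and 736 CPM (3 of 12 below 1 CPM in all libraries) and oligodendrocyte lineage markers to between 410 and 898 CPM (1 of 10). The 14 microglia markers summed to between 278 and 337 CPM in the 6 libraries of replicate 2 and to between 1809 and 3235 CPM in the other 18. Base composition differed between libraries, with 3 of the 24 at the extremes. Genes of high GC content were shifted against genes of low GC content by 0.82 on the log2 scale in 2 Gy 24 h replicate 3, and by -0.67 and -0.76 in the mock-irradiated 24 h libraries of replicates 1 and 2, while the other 21 lay between -0.34 and 0.47.

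The 250 bases upstream of the annotated start (RefSeq, GRCm38.p6) are shown for the 4 genes whose level fell after 2 Gy in the paired test described below. They are *Rrm1* (chr7:102441445-102441694, plus strand), *Rrm2* (chr12:24708004-24708253, plus strand), *Tyms* (chr5:30073626-30073875, minus strand) and *Tk1* (chr11:117826015-117826264, minus strand). RefSeq and the annotation of the gene spans above give different starts for some of these genes. Of the windows 13 bases of *Rrm2* and 78 bases of *Tk1* lie inside these spans, that of *Tyms* ends 8 bases before its span, and that of *Rrm1* adjoins it. Each is written 5′ to 3′ in the direction of transcription, and capitals mark matches to a core of the E2F site or to the CCAAT box.
Rrm1: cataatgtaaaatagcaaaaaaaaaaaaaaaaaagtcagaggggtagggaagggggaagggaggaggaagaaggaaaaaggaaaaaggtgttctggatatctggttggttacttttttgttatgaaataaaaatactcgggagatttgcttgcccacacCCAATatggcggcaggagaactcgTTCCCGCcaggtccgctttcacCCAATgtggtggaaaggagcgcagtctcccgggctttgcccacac
Rrm2: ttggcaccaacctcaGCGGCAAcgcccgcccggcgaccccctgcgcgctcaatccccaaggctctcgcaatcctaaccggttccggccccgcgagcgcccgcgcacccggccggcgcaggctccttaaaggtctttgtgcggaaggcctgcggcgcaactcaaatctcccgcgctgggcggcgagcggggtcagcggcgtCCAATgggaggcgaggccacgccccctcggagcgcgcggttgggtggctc
Tyms: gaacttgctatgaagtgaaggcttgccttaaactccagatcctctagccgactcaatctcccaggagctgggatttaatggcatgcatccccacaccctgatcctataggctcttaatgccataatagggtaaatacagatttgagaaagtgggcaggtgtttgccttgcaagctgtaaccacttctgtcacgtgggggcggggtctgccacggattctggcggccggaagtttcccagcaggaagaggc
Tk1: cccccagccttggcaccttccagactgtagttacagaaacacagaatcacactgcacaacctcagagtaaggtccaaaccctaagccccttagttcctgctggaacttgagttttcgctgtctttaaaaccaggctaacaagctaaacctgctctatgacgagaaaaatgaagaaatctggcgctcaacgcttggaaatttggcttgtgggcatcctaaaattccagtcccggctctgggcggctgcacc

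Both strands were searched. The forms of the E2F core were TTCCCGC as the first, with TTGGCGC as the next, followed by TTCGCGC and lastly by TTGCCGC. The CCAAT box was searched by its name, and the cell cycle homology region (CHR) as TTTGAA or in the form TTCGAA. *Rrm1* held the E2F core TTCCCGC at 67 to 61 bases before the start, between 2 CCAAT boxes. *Rrm2* held 1 E2F core on the other strand, at 235 to 229 bases before the start, and 1 CCAAT box at 50 to 46 bases. No match lay in the windows of *Tyms* and *Tk1*. Among the other 5 genes *Dtymk* held an E2F core and a CCAAT box, *Dctpp1* had 2 CCAAT boxes, *Dck* had a CHR, and *Dut* and *Samhd1* held none. The window of *Dut* lay wholly inside the annotated span of the gene, and those of *Dck*, *Dctpp1* and *Samhd1* in part. Of 32851 mouse promoter windows 7.89% held the E2F core, 33.8% the CCAAT box and 17.1% the CHR. These are matches of letters and no evidence of binding.

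All 9 genes were expressed in every group. Levels of different genes were set side by side as CPM per kilobase of exon. In mock-irradiated cells at 24 h, *Rrm2* was highest with 25.9 ± 10.6 CPM per kilobase (SD, n = 4), followed by *Samhd1* with 17.6 ± 2.52. The 4 libraries of these genes overlapped with each other, and both lay above all others. *Dtymk* (11.1 ± 0.789), *Dck* (10.5 ± 1.72), *Rrm1* (8.69 ± 1.22), *Dctpp1* (8.10 ± 3.22), *Dut* (5.64 ± 0.940), *Tk1* (3.40 ± 1.18) and *Tyms* (2.03 ± 0.485) followed in CPM per kilobase, and each of these neighbours overlapped with the next. After 2 Gy at 24 h the order at the top was turned, with *Samhd1* at 14.9 ± 3.84 and *Rrm2* at 12.01 ± 4.49 CPM per kilobase, although their libraries overlapped. In the 3 groups harvested at 6 h *Rrm2* lay above *Samhd1* without overlap.

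**Figure D1:**
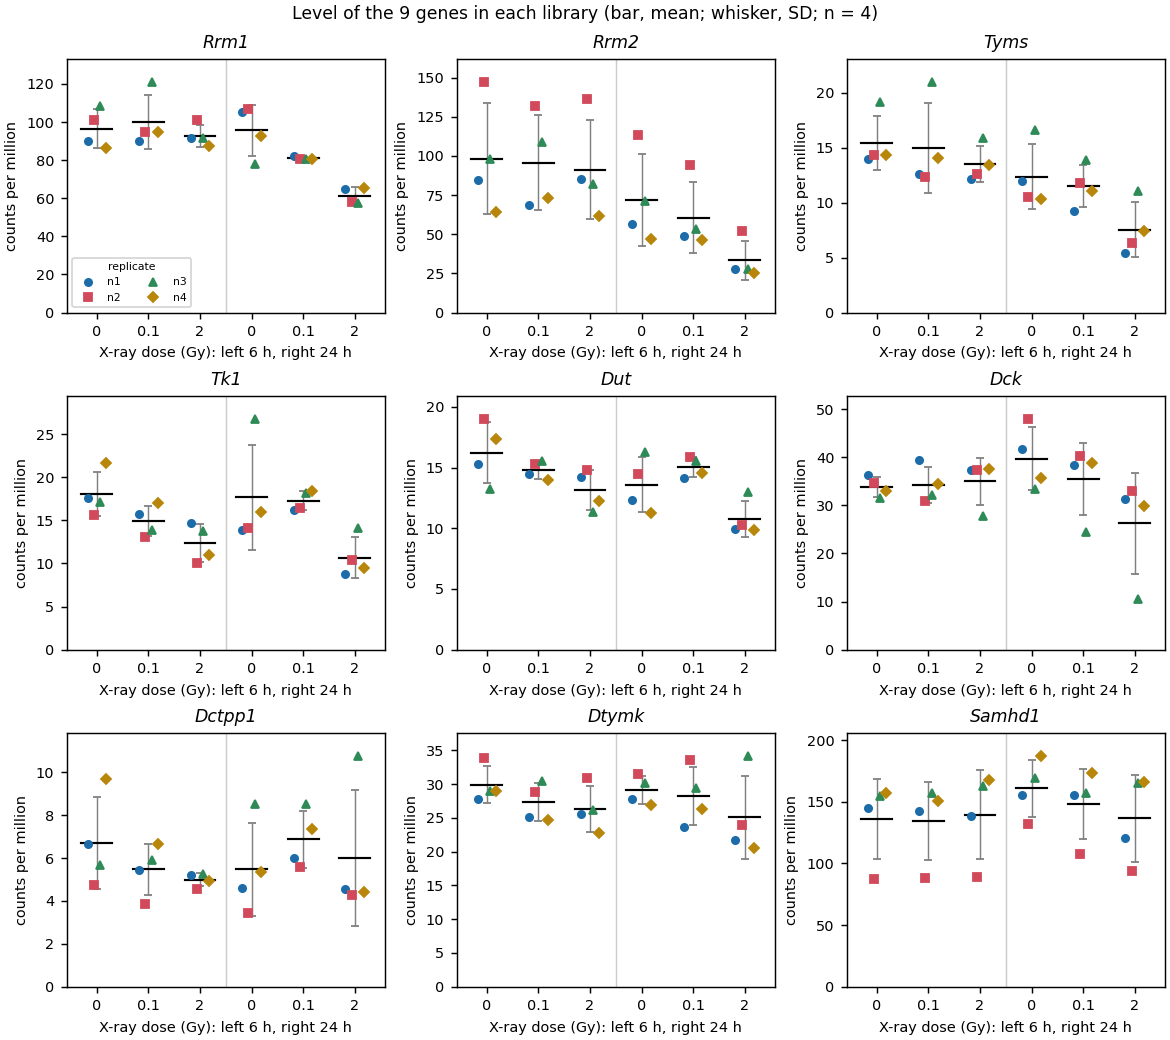
Level of each gene in CPM (vertical axis, from 0) by X-ray dose, at 6 h on the left and 24 h on the right of each panel. Each symbol is 1 library, coloured by replicate number, bars are means and whiskers SD (n = 4). *Rrm1* after 2 Gy at 24 h lies below all mock-irradiated libraries, and replicate 2 is the highest for *Rrm2* and the lowest for *Samhd1* in all groups.

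To determine whether the genes of deoxynucleotide supply responded to the higher dose, cells exposed to 2 Gy were compared with mock-irradiated cells at 24 h. When libraries of the same replicate number were paired, 4 of the 9 genes fell, and none rose: both subunits of ribonucleotide reductase, thymidylate synthase and cytosolic thymidine kinase. *Rrm2* fell by 1.09 on the log2 scale, *Tyms* by 0.72, *Tk1* by 0.70 and *Rrm1* by 0.63. In this paired test 13.2% of all 15892 genes were called and 6.69% were called lower. Without pairing, edgeR's quasi-likelihood test called none of the 9 genes and none of all genes (0% called), with *Rrm1* closest at an adjusted p of 0.444. At an unadjusted p under 0.05 that test gave 4 of the 9 genes, all lower, against 570 of all genes (3.59%, with 2.17% in the lower direction), and DESeq2's Wald test without pairing called 103 genes, with *Rrm1* as the only member, while limma voom called 0. The RNA was taken from whole cultures, where fewer cells that make a transcript and less of it per cell cannot be told apart.

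*Rrm2* showed the largest difference of the 9. Its level was 56.4, 113.1, 71.1 and 46.8 CPM in mock-irradiated replicates 1 to 4 at 24 h. It was 48.7, 94.1, 53.2 and 46.3 CPM after 0.1 Gy, and 27.9, 51.9, 27.9 and 25.5 CPM after 2 Gy. The 2 Gy libraries overlapped with the mock group as a whole only through replicate 2, the highest in both. Within each replicate number the level was lower after 2 Gy, with log2 differences between -1.35 and -0.87. The paired difference was 2.13-fold lower (log2 -1.09 ± 0.10 SE, 95% interval -1.32 to -0.86, adjusted p = 0.00186 by edgeR with the replicate number as a block). With an added correction for GC content and length of the gene it was -1.04 ± 0.10 (adjusted p = 0.00291), and without replicate 3 it was -0.999 ± 0.08.

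*Rrm1* is the partner of *Rrm2* in the same enzyme. Its level was 105.4, 106.6, 77.7 and 92.9 CPM in the mock-irradiated libraries at 24 h and 64.9, 57.8, 57.4 and 65.5 CPM after 2 Gy. The groups did not overlap, as was the case in the lower direction for 2.01% of all genes tested. After 0.1 Gy *Rrm1* took a narrow range of 80.8 to 82.1 CPM, which lay inside the mock range and above all 2 Gy libraries. The paired log2 fold change between 2 Gy and mock was -0.63 ± 0.10 SE (95% interval -0.85 to -0.40, adjusted p = 0.0110). This call was lost under the GC and length correction, where the value was -0.32 ± 0.10 (adjusted p = 0.142) and 2.84% of all genes were called. *Gm45399*, which lies within the span of *Rrm1* and shares no exonic base with it, had at most 4 counts in any library. At 44.0% the exons of *Rrm1* had the second lowest GC content of the 9 genes.

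*Tyms* and *Tk1* supply thymidylate by synthesis and by salvage. *Tyms* was at 11.9, 10.5, 16.6 and 10.3 CPM in mock-irradiated cells at 24 h and at 5.38, 6.29, 11.1 and 7.43 CPM after 2 Gy. Replicate 3 was highest in both groups, and its 2 Gy library was the only one within the mock range. The paired log2 fold change of *Tyms* was -0.72 ± 0.13 SE (95% interval -1.02 to -0.42, adjusted p = 0.0167), and under the GC and length correction -0.60 ± 0.13 (adjusted p = 0.0482). *Tyms-ps*, annotated as a processed pseudogene of *Tyms*, was not analysed here.

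*Tk1* was at 13.8, 14.1, 26.7 and 15.99 CPM in mock-irradiated cells and at 8.72, 10.4, 14.1 and 9.43 CPM after 2 Gy. Here too replicate 3 was the highest in both groups and the only 2 Gy library to reach the mock range. The paired log2 fold change of *Tk1* was -0.70 ± 0.12 SE (95% interval -0.96 to -0.44, adjusted p = 0.0124), and it was -0.80 ± 0.09 (adjusted p = 0.00463) under the GC and length correction. *Tk1* shares 83 exonic bases with *Afmid* on the other strand, which had at most 118 counts in any library, against at least 128 counts for *Tk1*. *Gm20708* overlaps the span of *Tk1* with 0 exonic bases in common and had at most 13 counts.

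The other 5 genes did not pass the paired test. *Dck* was at 41.8, 47.9, 33.4 and 35.7 CPM in mock-irradiated cells and at 31.4, 33.1, 10.6 and 29.9 CPM after 2 Gy. The groups did not overlap, and replicate 3 was far below the other 2 Gy libraries. The paired log2 fold change of *Dck* was -0.69 ± 0.20 SE (95% interval -1.14 to -0.23, adjusted p = 0.0532), but -0.39 ± 0.08 (adjusted p = 0.00182) without replicate 3. *Dck* has the lowest GC content of the 9 genes with 42.2%. *Dut* ranged from 11.2 to 16.3 CPM in mock-irradiated cells and from 9.88 to 13.0 CPM after 2 Gy, with a paired log2 fold change of -0.33 ± 0.11 (adjusted p = 0.0714).

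*Dtymk* ranged from 27.0 to 31.5 CPM in mock-irradiated cells and from 20.6 to 34.1 CPM after 2 Gy. Its 2 Gy library was the lower one in 3 of 4 pairs and the higher one in replicate 3, and the paired log2 fold change was -0.23 ± 0.12 (adjusted p = 0.205). *Samhd1* ranged from 132.2 to 186.9 CPM and from 94.1 to 165.8 CPM, with a paired log2 fold change of -0.26 ± 0.10 (adjusted p = 0.104). *Dctpp1*, with the highest GC content of 58.0%, was the only gene not fitted lower: 4.59, 3.45, 8.53 and 5.33 CPM in mock-irradiated cells stood against 4.57, 4.28, 10.7 and 4.42 CPM after 2 Gy. Its paired log2 fold change was 0.10 ± 0.15 (95% interval -0.24 to 0.45, adjusted p = 0.674), and under the GC and length correction it was -0.24 ± 0.13.

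In all, 8 of the 9 genes were fitted lower after 2 Gy in the unpaired test, as were 48.7% of all genes, and 7 of the 9 were lower in all 4 pairs, as were 21.9% of all genes. The median paired log2 fold change was -0.63 over the 9 genes and 0.0045 over all genes tested. The shift of genes of high against genes of low GC content was higher after 2 Gy than in mock-irradiated cells in all 4 pairs at 24 h. It was -0.11 against -0.67 on the log2 scale in replicate 1, -0.02 against -0.76 in replicate 2, 0.82 against 0.43 in replicate 3 and -0.02 against -0.34 in replicate 4. With the GC and length correction *Rrm2*, *Tyms* and *Tk1* stayed called and *Rrm1* did not. Without replicate 3, the paired test called 8 of the 9 genes, all but *Dctpp1*, among 5291 genes called. Without replicate 1, 2 or 4 it called only *Rrm2*, among 143, 69 and 245 genes, respectively. With each replicate number left out in turn, the paired log2 fold change of the 4 genes lay between -1.15 and -0.999 for *Rrm2*, between -0.68 and -0.55 for *Rrm1*, between -0.80 and -0.60 for *Tyms* and between -0.79 and -0.61 for *Tk1*. Among the other 5 genes it ranged from -0.83 to -0.39 for *Dck*, from -0.37 to -0.18 for *Dtymk*, from 0.0080 to 0.23 for *Dctpp1*, from -0.33 to -0.19 for *Samhd1* and from -0.37 to -0.28 for *Dut*.

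Markers of other cell types were examined in the same 8 libraries. The summed level of the oligodendrocyte lineage markers was higher after 2 Gy in all 4 pairs (578, 624, 639 and 453 CPM in mock-irradiated replicates 1 to 4 and 692, 897, 789 and 489 CPM after 2 Gy). That of the microglia markers was also higher in all 4 pairs (1809, 278, 2287 and 2279 CPM against 2141, 299.8, 2819 and 2336 CPM). The sums of astrocyte, neuron, and fibroblast and vessel markers were lower in 3 of 4 pairs and higher in replicate 3. The groups overlapped for all 5 lists. The paired test called 2 of 12 astrocyte markers higher, 2 of 14 microglia markers higher and 1 lower, 1 of 7 tested neuron markers and 1 of 8 tested oligodendrocyte lineage markers higher, and 0 of 8 tested fibroblast and vessel markers, of which 2 had an unadjusted p under 0.05. In the same test 6.53% of all genes were called higher and 6.69% lower. The part of these cell types in the lower levels of the 9 genes was not tested.

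**Figure D2:**
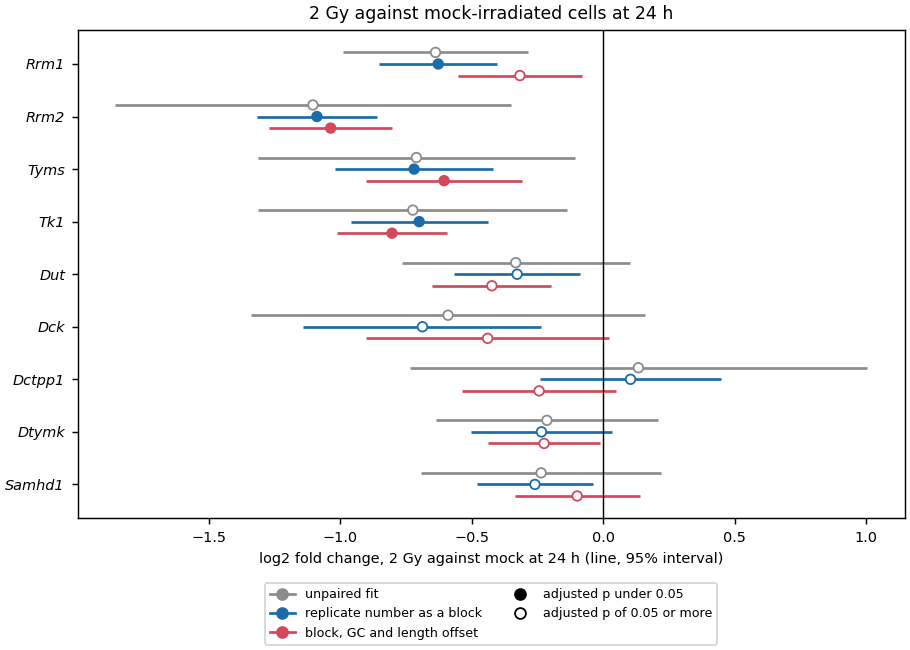
Log2 fold change between 2 Gy and mock-irradiated cells at 24 h (horizontal axis) for each gene, with 95% intervals, in the unpaired test, the paired test and the paired test with GC and length correction. Filled points have an adjusted p under 0.05, which held for 0 of 9 unpaired, 4 of 9 paired and 3 of 9 with the correction, where *Rrm1* is lost.

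At 6 h after 2 Gy no member was called, unpaired or paired, where 0% of 15994 genes were called in either test. At an unadjusted p under 0.05 the unpaired test gave 1 of the 9 genes and 215 of all genes (1.34%). Of the 9 genes 7 were fitted lower in that test, as were 50.4% of all genes. DESeq2's Wald test called 1 gene unpaired and 67 paired, none of them a member, and limma voom called 0 in both forms. The gene nearest to the threshold was *Tk1*. It was at 17.6, 15.6, 17.2 and 21.6 CPM in mock-irradiated cells and at 14.7, 10.05, 13.7 and 11.0 CPM after 2 Gy. The groups did not overlap, as was the case in this direction for 0.707% of all genes. The paired log2 fold change of *Tk1* was -0.54 ± 0.13 SE (95% interval -0.84 to -0.23, adjusted p = 0.385), and under the GC and length correction the adjusted p was 0.0516. *Dut* followed with a paired log2 fold change of -0.29 ± 0.10 (adjusted p = 0.673). For the subunits of ribonucleotide reductase the paired log2 fold change was -0.05 (95% interval -0.23 to 0.12) for *Rrm1* and -0.10 (95% interval -0.27 to 0.07) for *Rrm2*.

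Whether the difference after 2 Gy itself changed from 6 h to 24 h was tested as an interaction of dose and time. In the paired test the difference was more negative at 24 h for *Rrm2*, by -0.98 ± 0.13 on the log2 scale (95% interval -1.26 to -0.70, adjusted p = 0.0132), and for *Rrm1*, by -0.57 ± 0.13 (95% interval -0.84 to -0.29, adjusted p = 0.0399). Of all 16866 genes tested 6.78% were called in this paired test, and 3.23% were called in this direction. The differences within replicate numbers, on which this test rests, did not overlap between the times for either gene. Those of *Rrm2* lay between -1.35 and -0.87 at 24 h and between -0.25 and 0.01 at 6 h. Those of *Rrm1* lay between -0.88 and -0.44 at 24 h and between -0.25 and 0.03 at 6 h. The share of all genes without such overlap was not determined. *Tyms* did not pass, with -0.52 ± 0.16 (adjusted p = 0.0583). For *Tk1* the paired interaction was -0.15 ± 0.18 (95% interval -0.55 to 0.24, adjusted p = 0.594), so that a change of its response over time was not detectable. Under the GC and length correction 1.63% of all genes and, of the 9, *Rrm2* alone passed, with -0.91 ± 0.12 (adjusted p = 0.00609), whereas *Rrm1* was at -0.15 ± 0.14 (adjusted p = 0.579). With each replicate number left out in turn the paired interaction stayed between -1.03 and -0.93 for *Rrm2* and between -0.69 and -0.47 for *Rrm1*, while the adjusted p moved across the threshold. Without replicate 1 or 2 edgeR called 0 genes (3994 and 2745 at an unadjusted p under 0.05), with adjusted p of 0.120 and 0.286 for *Rrm2* and of 0.136 and 0.286 for *Rrm1*. Without replicate 4, *Rrm2* (adjusted p = 0.0320) but not *Rrm1* (adjusted p = 0.0830) was among 138 genes called. Unpaired, edgeR called 0 genes in this test, DESeq2's Wald test called 4 and limma voom 0, with no member among them, and 827 genes had an unadjusted p under 0.05 (4.90%).

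**Figure D3:**
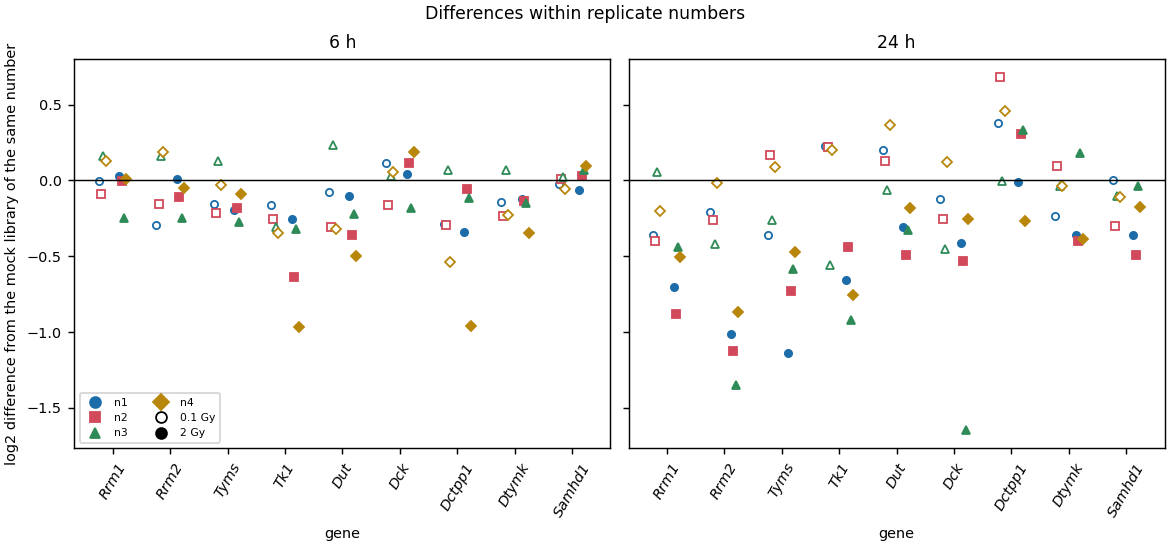
Log2 difference of each irradiated library from the mock-irradiated library of the same replicate number (vertical axis), at 6 h (left) and 24 h (right), with open symbols for 0.1 Gy and filled symbols for 2 Gy. After 2 Gy at 24 h all 4 differences lie below 0 for 7 of the 9 genes, from -1.35 to -0.87 for *Rrm2*, and *Dck* in replicate 3 stands apart at -1.65.

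The lower dose of 0.1 Gy gave no call among the 9 genes at either time in the tests with all replicates. At 24 h the unpaired test called 0% of 16183 genes, and DESeq2 and limma voom called 0 as well, while 241 genes (1.49%) had an unadjusted p under 0.05, with no member among them. The paired test called 6.84% of all genes at 24 h, and the 9 genes had paired log2 fold changes between -0.24 and 0.35 with adjusted p from 0.116 to 0.993. The lowest value was that of *Rrm2* (-0.24 ± 0.09, adjusted p = 0.116), followed by *Rrm1* (-0.24 ± 0.09, adjusted p = 0.124), and the highest that of *Dctpp1* (0.35 ± 0.15, adjusted p = 0.143). Without replicate 3 the paired test called *Rrm1* (-0.33) lower and *Dctpp1* (0.50) higher, among 3728 of 16060 genes called. With the GC and length correction and all replicates, the value of *Rrm1* turned from -0.24 to 0.05 ± 0.08 (adjusted p = 0.794) and that of *Dctpp1* went from 0.35 to 0.08 ± 0.12 (adjusted p = 0.786). None of the 9 genes was called with the correction, where *Rrm2* had the lowest value (-0.20 ± 0.08, adjusted p = 0.223). At 6 h after 0.1 Gy edgeR, DESeq2 and limma voom called 0 of all genes, unpaired and paired (24 genes, or 0.15%, at an unadjusted p under 0.05 in edgeR's unpaired test), and the 9 genes lay between -0.28 and 0.05 in paired log2 fold change.

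The doses were also compared directly, which uses the same 2 Gy libraries as above. At 24 h all 9 genes were fitted lower after 2 Gy than after 0.1 Gy, against 42.8% of all genes, and 5 of them had an unadjusted p under 0.05, as did 1.34% of all genes. EdgeR called 0% of 16002 genes, and thus no member, unpaired or paired. DESeq2's Wald test called 39 genes unpaired, with no member, and 110 genes paired, with 2 members, and limma voom called 0 in both forms. *Rrm1*, *Tk1* and *Dut* did not overlap between these groups, as was the case in this direction for 1.06% of all genes. The paired log2 fold change was -0.85 ± 0.08 for *Rrm2* (adjusted p = 0.0639), -0.70 ± 0.12 for *Tk1* (adjusted p = 0.120), -0.62 ± 0.13 for *Tyms* (adjusted p = 0.195), -0.47 ± 0.11 for *Dut* (adjusted p = 0.258) and -0.39 ± 0.08 for *Rrm1* (adjusted p = 0.238). Under the GC and length correction *Rrm2* (adjusted p = 0.00574), *Tk1* (adjusted p = 0.0284) and *Dut* (adjusted p = 0.0477) were called lower, where 0.7% of all genes were called. At 6 h the 2 doses gave paired log2 fold changes between -0.27 and 0.05 for the 9 genes, and none was called, where the paired test called 0.0553% of all genes and the unpaired test 0% (121 genes, or 0.743%, at an unadjusted p under 0.05).

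In mock-irradiated cells the levels were also set against each other by time. None of the 9 genes was called between 24 h and 6 h in the unpaired test, which called 6.7% of 15887 genes. DESeq2 called 1988 and limma voom 1009 genes there, with no member among them. Deviations from the group means correlated at 0.41, 0.82, 0.06 and 0.52 between the times for replicates 1 to 4. As the value of replicate 3 was low, the levels are compared as groups. *Rrm2* had 84.3, 147.1, 97.7 and 64.1 CPM at 6 h, which overlapped with its levels at 24 h, and a log2 fold change of -0.47 ± 0.32 (adjusted p = 0.405). With single libraries left out this fold change ranged from -0.76 to -0.19. *Rrm2* was lower at 24 h within all 4 replicate numbers. With the replicate number as a block edgeR called it (-0.48, adjusted p = 0.0450), among 2428 of 15887 genes called. *Samhd1* and *Dck* also overlapped between the times, with log2 fold changes of 0.23 ± 0.20 and 0.21 ± 0.15 (adjusted p = 0.522 and 0.420).

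Lists of neighbouring genes were compared at 24 h after 2 Gy in the paired test, which called 6.69% of all genes lower and 6.53% higher. Of the 22 genes of the replication fork and of origin licensing 16 fell and none rose, with a median paired log2 fold change of -0.52. *Pole*, the catalytic subunit of the leading strand polymerase, fell by 1.05 and *Cdc45*, a part of the replicative helicase, fell by 0.95. All 6 subunits of the MCM helicase were called, namely *Mcm4* (-0.80), *Mcm5* (-0.76), *Mcm6* (-0.71), *Mcm2* (-0.70), *Mcm3* (-0.67) and *Mcm7* (-0.40). The primase subunit *Prim1* (-0.78) fell with its partner *Pola1* (-0.62), as did *Pold1* (-0.42) of the lagging strand polymerase and *Lig1* (-0.53), which joins the Okazaki fragments. The sliding clamp *Pcna* (-0.54), the clamp loader subunits *Rfc4* (-0.50) and *Rfc5* (-0.50) and *Rpa2* (-0.41) of the single-strand binding complex were also called. With the correction 11 of the 22 genes stayed called, with a median of -0.53. Without pairing edgeR called none of the 22, where it called 0% of all genes. The unpaired calls of DESeq2's Wald test were not determined for this list.

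Of 17 other genes of deoxynucleotide synthesis, salvage and breakdown 5 rose and 1 fell, with a median of 0.24. The genes that rose were the 5′-nucleotidases *Nt5c* (0.56) and *Nt5m* (0.35), the Nudix hydrolase *Nudt18* (0.49), the mitochondrial carrier *Slc25a33* (0.45) and the mitochondrial thymidine kinase *Tk2* (0.34), and the mitochondrial carrier *Slc25a36* fell (-0.35). None of these 6 was called under the GC and length correction. *Rrm2b*, the small subunit of ribonucleotide reductase that p53 induces and that resting cells use, had a paired log2 fold change of -0.37 ± 0.17 (adjusted p = 0.163) and of -0.03 ± 0.14 with the correction. It was at 45.8, 57.3, 22.8 and 34.4 CPM in mock-irradiated cells at 24 h and at 44.6, 41.7, 10.7 and 34.8 CPM after 2 Gy, with replicate 3 the lowest in both groups. *Cdkn1a*, a p53 target named here after its values were seen, was at 269.1, 358.4, 380.8 and 274.9 CPM in mock-irradiated cells at 24 h and at 402.8, 566.5, 530.6 and 400.7 CPM after 2 Gy. Its log2 fold change was 0.57 ± 0.19 unpaired (adjusted p = 0.940), 0.57 ± 0.08 paired (adjusted p = 0.00929) and 0.40 ± 0.07 with the correction (adjusted p = 0.0254). At 6 h *Cdkn1a* was also higher after 2 Gy in 4 of 4 pairs, by 0.64 ± 0.25 unpaired (adjusted p = 0.9999), 0.67 ± 0.10 paired (adjusted p = 0.141) and 0.73 ± 0.07 with the correction (adjusted p = 0.00346).

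Of the 16 genes of purine synthesis *Guk1* (0.39) and *Aprt* (0.36) rose and *Ppat* (-0.44) and *Gmps* (-0.32) fell in the paired test, and of the 13 genes of pyrimidine synthesis and of the nucleotide kinases *Nme2* (0.51) rose. None of these 5 was called with the correction. The medians of both lists were -0.06 and 0.07.

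**Figure D4:**
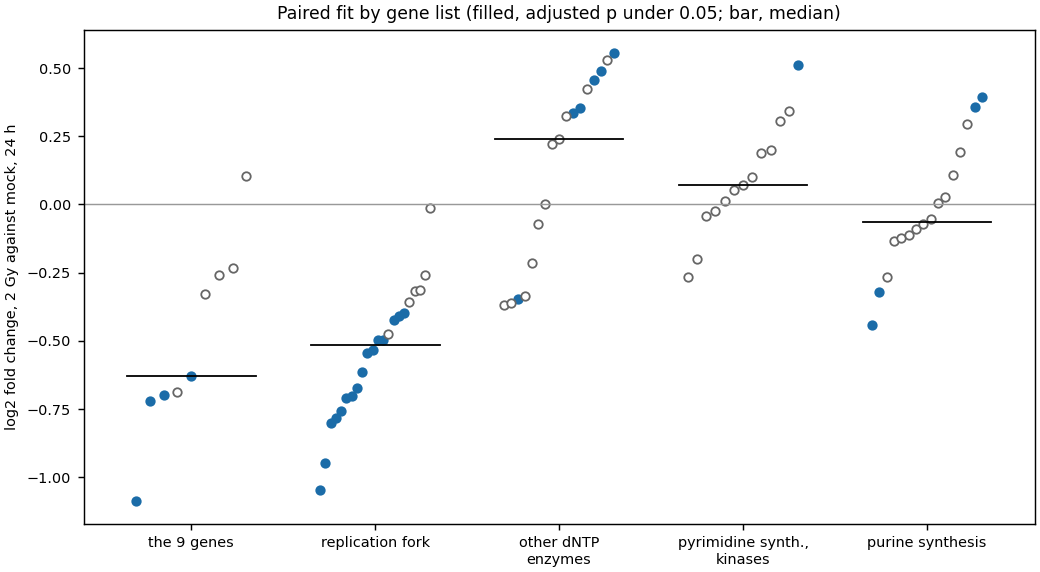
Paired log2 fold change between 2 Gy and mock-irradiated cells at 24 h (vertical axis) of every tested gene in 5 lists, ordered by value within a list, with bars at the medians. Filled points have an adjusted p under 0.05. They lie below 0 for 4 of the 9 genes and for 16 of 22 genes of the replication fork, and on both sides of 0 in purine synthesis.

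Across the 24 libraries, replicate 2 had the highest *Rrm2* and the lowest *Samhd1* in each of the 6 groups, with *Samhd1* between 87.4 and 132.2 CPM there and between 121.0 and 186.9 CPM in the other replicates. Replicate 2 also had the lowest sum of microglia markers in each group, and the part of microglia in the level of *Samhd1* was not tested. The genes most like *Rrm2* over 24 libraries, out of 17353, were *Kif18b*, *Fam57a*, *Bard1*, *Rtkn2* and *Ccnb1*, with Pearson's r of log2 CPM from 0.955 down to 0.921. Those most like *Samhd1* were *Ccbe1*, *Apobec3*, *Rnase4*, *Taok3* and *Parp9*, with r from 0.942 down to 0.930. These correlations are descriptions, since the libraries share dose, time, replicate number and base composition.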

How the data were processed

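RNA of primary cortical astrocytes was sequenced by GENEWIZ after poly(A) selection (paired-end, Illumina NovaSeq). The authors deposited raw counts per gene for each library, after trimming and mapping to mm10 by the company, without normalization or pooling. The aligner, the counting tool and the use of strand are not given in the sources used here. Of 49315 genes 48970 are in GENCODE M21 and 44772 have the same start and end there. Groups and replicate numbers come from the titles. The members, gene lists, motifs and tests were chosen with earlier results of these data known. The text names all members, *Rrm2b*, genes that overlap a member or are annotated as its copy, the 5 genes most like *Rrm2* and *Samhd1*, and the genes of the lists it gives that were called in the paired test at 24 h after 2 Gy. The rule also covered list genes called in the other comparisons, which are not named. 1 gene of the list of other deoxynucleotide genes, *Pnp*, could not be matched by symbol. 1 further list, of the folate cycle, is not reported here.

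The counts went into edgeR 4.0.16 (R 4.3.3), using the libraries of the groups compared, with TMM normalization, filterByExpr, the quasi-likelihood test and Benjamini-Hochberg adjustment over all genes tested, and calls required an adjusted p under 0.05. All adjusted p-values are from edgeR unless another tool is named. Standard errors are the absolute log2 fold change divided by the root of F. CPM used TMM over 24 libraries, and log2 CPM a prior count of 2. The main design had no block, as the methods name none, and the paired test adds the replicate number as a block. The numbers were taken to pair the libraries within a time. Deviations from the group means of libraries of the same number correlated between 0.539 and 0.927 in the 6 dose comparisons. Libraries of different numbers were not correlated. GC content and length were corrected by an offset per library, fitted as splines with 5 degrees of freedom. P-values of the unpaired test measure the spread between the 4 biological repeats. Those of the paired test measure how the difference between groups varies over the 4 replicate numbers. None of the 36 pairs of libraries within groups differed as little as sampling noise (lowest chi-square per degree of freedom 28.3). Alternatives were DESeq2 1.42.0, limma voom (3.58.1), other normalizations, filters and thresholds, all 24 libraries in 1 fit, and libraries left out. Scripts were tested on simulated data. Promoter windows came from RefSeq (GRCm38.p6), matched for 9 of 9 genes by symbol.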

Additional observations from a re-analysis of the deposited data

Results flagged for a closer look

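Of the 54 combinations of the 9 genes and the 6 groups, 11 held a library far from the other 3 by Dixon's criterion for 4 values at the 95% level. Chance alone marks about 1 in 20 independent groups, but the 54 combinations share the same 24 libraries. The share over all genes was not determined. In 8 of the 11 the library was of replicate 3. *Dck* was lowest in replicate 3 after 0.1 Gy at 24 h (24.4 CPM), after 2 Gy at 24 h (10.6 CPM) and after 2 Gy at 6 h (27.7 CPM). In 2 Gy 24 h replicate 3, *Dctpp1* (10.7 CPM) and *Dut* (13.0 CPM) were the highest of their group. *Tk1* was highest in mock-irradiated replicate 3 at 24 h (26.7 CPM), and *Tyms* in mock-irradiated replicate 3 at 6 h (19.2 CPM). After 0.1 Gy *Rrm1* was highest in replicate 3 at 6 h (120.9 CPM) and highest in replicate 1 at 24 h (82.1 CPM, in a group that spans 80.8 to 82.1 CPM). *Rrm2* was highest in replicate 2 at 24 h after 0.1 Gy (94.1 CPM) and after 2 Gy (51.9 CPM).

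The difference between 2 Gy and mock-irradiated cells was not the same at 24 h as at 6 h for *Rrm1* (-0.57 on the log2 scale, adjusted p = 0.0399) and *Rrm2* (-0.98, adjusted p = 0.0132) by the interaction term of edgeR's paired test. For both genes all 4 differences within replicate numbers at 24 h lay below all 4 at 6 h, which describes the values that the test used. *Rrm1* missed the threshold under the GC and length correction, and neither gene passed without replicate 1 or 2, where the value was -0.52 and -0.47 for *Rrm1* and -0.97 and -0.98 for *Rrm2*.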

How the results depend on the processing

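The number of the 9 genes called was 0 in each of the 8 comparisons without pairing by edgeR. It stayed at 0 with DESeq2's size factors, library size alone, limma voom, other filters and with each single library left out, in all 8 comparisons. Stricter thresholds on the same unpaired test could give only 0. For 2 Gy against mock-irradiated cells at 24 h, DESeq2's Wald test called 1 (*Rrm1*, adjusted p = 0.0459), among 103 of 29840 genes called. The fit of all 24 libraries also called 1 (*Rrm1*, adjusted p = 0.00430), among 108 of 17353. With the replicate block 4 were called, with GC and length correction added 3, and without replicates 1, 2, 3 and 4 in turn 1, 1, 8 and 1. After seeing the data, DESeq2 and limma voom were also run with the replicate block. They called 5 and 4, among 2327 of 29840 and 2093 of 15892 genes called. For the interaction, the block gave 2 and the added correction 1. DESeq2 with the block gave 4, among 2469 of 32056 genes called, and limma voom with the block 2, among 1152 of 16866. Without replicates 3 and 4 the block gave 4 and 1, among 3951 of 16871 and 138 of 16951 genes called. For 2 Gy against 0.1 Gy at 24 h, the correction gave 3, DESeq2 with the block 2, and the block without replicates 3 and 4 gave 4 and 1, among 161 and 40 genes called. For 0.1 Gy at 24 h the block without replicate 3 gave 2, among 3728 of 16060. For 24 h against 6 h in mock-irradiated cells, the levels were compared as groups, since the lowest correlation within a replicate number was 0.0645, in replicate 3. The block gave 1 there (*Rrm2*, -0.48, adjusted p = 0.0450). DESeq2 and limma voom with the block gave 1 each, among 3075 of 29991 and 2441 of 15887 genes called. The added correction gave 3, among 4373 of 15887 genes called, and the block without replicate 3 gave 4, among 7192 of 15840. The replicate block changed no other call among the 9 genes. Of the single fold changes examined, that of *Dctpp1* at 24 h after 2 Gy (0.13) changed sign, to -0.24 with the block and correction, and it ranged from -0.29 without 2 Gy 24 h replicate 3 to 0.42 with single libraries left out. Over all genes, edgeR called 0 unpaired, 2100 with the block and 452 with the added correction for 2 Gy at 24 h, 0, 1107 and 240 for 0.1 Gy at 24 h, 0, 1143 and 275 for the interaction, and 1064, 2428 and 4373 for 24 h against 6 h. The cause of these changes was not tested. In counts, the smallest value was 67 for *Dctpp1*, where counting error is largest. Without replicates 1, 2 and 4 in turn, *Rrm1*, *Tyms* and *Tk1* at 24 h missed the threshold with log2 fold changes that stayed between -0.80 and -0.55, while the calls over all genes dropped from 2100 to 143, 69 and 245. *Rrm2* stayed called without any 1 replicate (adjusted p at most 0.0343).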
